A study of Mus musculus with 6 samples.

Results

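The clustered histone genes are the replication-dependent histone genes that lie together in the mouse genome and carry names beginning Hist1h, Hist2h, Hist3h or Hist4h. Members were all rows of the expression table whose symbol begins that way, with case ignored. They were 68 of 29868 transcripts, held under 32 of 22454 symbols or unnamed entries. By class they were 6 transcripts of linker histone H1, 18 of H2A, 19 of H2B, 12 of H3 and 13 of H4.

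RNA was sequenced from CD4 T cells of wild-type C57/BL6 mice, sorted as naive and activated through CD3 and CD28 with IL-4 and IFN-gamma blocked, a state the labels call Th0. The cells of 3 libraries were transduced with the MigR1 retrovirus carrying Blimp-1 cDNA, and those of 3, the controls below, with the empty MigR1 vector. Blimp-1 is a transcriptional repressor encoded by Prdm1. Cells of both groups were wild type, and both were sorted for the GFP that the vectors express, so Blimp-1 came from a retroviral vector on top of any product of the cells' own gene. The labels name 3 independent biological replicates but no animal age or sex, and do not say whether animals were pooled.

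Replication-dependent histone genes supply the proteins that package newly copied DNA. H2A and H2B pair as dimers, H3 and H4 form the tetramer at the core of the nucleosome, and H1 binds the linker DNA between nucleosomes. Their mRNAs rise in S phase and are removed when DNA synthesis ends. Most of them have no poly(A) tail and end just after a short stem-loop, which is bound by the stem-loop binding protein, Slbp. The libraries were made with a TruSeq mRNA kit, which selects poly(A) RNA. Such libraries capture most of these mRNAs poorly, and the values below are those of the captured fraction.

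The stem-loop is what sets these messages apart, so its forms are shown first. Of 67 member transcripts with a sequence in GENCODE M21, 46 held a 16-base element with a 6-base stem and a 4-base loop. The commonest form, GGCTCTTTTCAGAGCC, was in 26 of them. The form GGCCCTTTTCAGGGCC was in 7, and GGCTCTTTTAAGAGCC was in 6. The stem-loop is in capitals in these 5 examples, chosen to show 1 gene of each class whose values follow, with 5 flanking bases on each side in lower case:
Hist1h1c: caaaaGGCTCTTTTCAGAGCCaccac
Hist1h2ag: acaaaGGCTCTTTTCAGAGCCaccta
Hist1h2bj: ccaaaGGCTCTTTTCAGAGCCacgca
Hist1h3c: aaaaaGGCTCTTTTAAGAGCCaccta
Hist1h4i: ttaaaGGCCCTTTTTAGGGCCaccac

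In 22 transcripts the stem-loop lay within 100 bases of the end of the GENCODE model, where the processed form would stop. In 24 it lay further inside that model, and in 21 the model held none. Some of these models are longer than the RefSeq genes, and the FPKM values are those of RefSeq transcripts. The Hist1h1d model, for example, runs 4884 bases past its stem-loop, while the RefSeq gene is 776 bases long. The position therefore describes the GENCODE model and not always the transcript measured.

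The symbols in the table follow human usage, and they often stand for other mouse genes. Of the 68 transcripts, 54 carried a symbol that differs from the mouse name found by accession, and in 25 the cluster number differed too. The entry HIST1H2BB, for example, was mouse Hist3h2ba, and the entry HIST3H3 held Hist1h3a, Hist1h3g, Hist1h3h and Hist1h3i. Some entries pooled genes, and 6 symbols held 42 of the transcripts. Mouse names are used below where an entry holds 1 gene. By mouse name 54 transcripts were from Hist1 on chromosome 13, 10 from Hist2 on chromosome 3, 2 from Hist3 on chromosome 11 and 1 from Hist4 on chromosome 6. The transcript under HIST3H2BB had no match and keeps its deposited symbol.

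Near-identical copies make single histone genes uncertain. Reads were 50 bases long, and in the median member 49.3% of the 50-base stretches also occurred in a transcript of another gene. In 31 of 67 members more than 50% of them did, and in 4 members none did. These shares were counted over GENCODE models, some longer than the RefSeq genes, so they can differ in the transcripts measured. The same FPKM was listed for Hist1h4c and Hist1h4j in Blimp-1 replicate 1 (3.94) and for Hist1h4c and Hist1h4k in Blimp-1 replicate 2 (2.03). Since FPKM divides reads by each transcript's length, the sum over an entry can also shift with how reads were split among copies of different length.

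The labels were checked on Prdm1 and on cell type markers. Prdm1 was at 0.996, 2.03 and 1.38 FPKM in empty vector replicates 1, 2 and 3, and at 9.91, 12.8 and 9.45 in the Blimp-1 replicates, with no overlap (log2 fold change 2.26, limma adjusted p = 0.0634, and 0.00951 with the replicate number as a block). Estimated depth was 19.5, 41.5 and 18.6 M reads in the controls and 46.3, 50.0 and 36.6 M with Blimp-1. The summed level of 5 T cell markers was 891 to 1140 FPKM, against 1.48 to 5.72 for 4 B cell markers and at most 0.141 for 3 NK cell markers. Empty vector replicate 3 stood apart on the first principal component, which held 51.1% of the variance, at -34.2 against -12.5 to 22.7 for the other libraries. It also had 9.98 FPKM of red cell markers against 0.316 to 1.64 elsewhere. The part of that library's features in the results below was not tested. Deviations of same-numbered libraries correlated at 0.75, 0.79 and 0.66 across genes, so replicate numbers were taken as pairs.

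Clustered histone mRNA was a small part of these libraries, and its summed level was lower with Blimp-1 in each of the 3 pairs. Levels are in FPKM, fragments scaled to transcript length and library size, so genes of different length can be compared. All 68 transcripts together came to 196, 108 and 225 FPKM in empty vector replicates 1, 2 and 3. With Blimp-1 they came to 140, 90.0 and 178 FPKM. The means were 176 ± 61.0 (SD, n = 3) in the controls and 136 ± 44.1 (SD, n = 3) with Blimp-1, a ratio of 0.771. The ratios within pairs 1, 2 and 3 were 0.712, 0.835 and 0.792. The 2 vectors overlapped widely, because replicate 2 was low and replicate 3 high in both. In bulk RNA, fewer cells in S phase and less histone mRNA per cell cannot be told apart.

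Depth differed in the same pairs. The empty vector library was the shallower one in each pair. In pair 2, where depths were closest at 41.5 and 50.0 M reads, the ratio of the sums was 0.835. The part of depth in the difference was not tested.

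**Figure D1:**
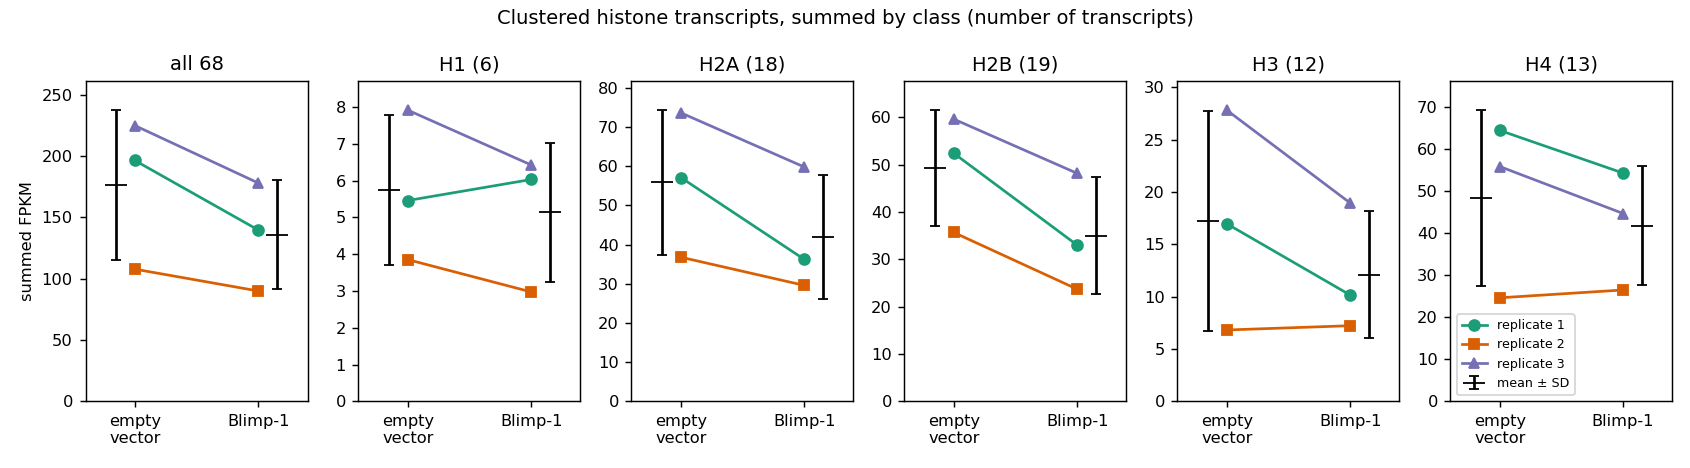
Summed FPKM of the clustered histone transcripts, all 68 and by class, in each library (vertical axes in FPKM, each starting at 0). Lines join libraries of the same replicate number, and black bars are the mean ± SD of 3 libraries. The total was lower with Blimp-1 in each pair, while H3 and H4 in replicate 2 and H1 in replicate 1 were not.

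The classes did not move alike in every pair. H2A summed to 57.1, 36.8 and 73.7 FPKM in the controls and to 36.3, 29.6 and 59.8 with Blimp-1. H2B, its dimer partner, summed to 52.4, 35.7 and 59.6 FPKM in the controls and to 33.0, 23.7 and 48.1 with Blimp-1. Both were lower in all 3 pairs, with ratios of 0.635 to 0.812 for H2A and 0.630 to 0.808 for H2B.

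H3 came to 17.0, 6.82 and 27.8 FPKM in the controls and to 10.2, 7.23 and 18.95 with Blimp-1. H4 came to 64.4, 24.6 and 55.8 FPKM, and to 54.2, 26.5 and 44.6 with Blimp-1. Both tetramer histones were lower in pairs 1 and 3 and slightly higher in pair 2, where the ratios were 1.06 for H3 and 1.08 for H4. H1 was the lowest class, at 5.46, 3.85 and 7.92 FPKM in the controls and 6.03, 2.98 and 6.43 with Blimp-1. Whether the classes differ from each other in their response was not tested.

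Single entries were compared with limma on log2(FPKM + 1), adjusted by the Benjamini-Hochberg method over all 10876 genes with 3 or more of the 6 libraries at 1 FPKM or above. Of the 32 histone entries 22 passed this filter, none of them through 1 vector alone. No histone entry was called at an adjusted p of 0.05, and neither was any other gene (0% of genes tested). At an unadjusted p of 0.05, 1 histone entry of 22 passed, against 1.13% of all genes tested. With the replicate number as a block, limma again called 0 of 22, against 0.0184% of all genes. At an unadjusted p of 0.05 in the blocked fit, 10 of 22 were lower, against 10.4% of all genes. Without the libraries of replicate 3 the blocked fit, left with 1 residual degree of freedom, called 8 of 22 as lower, against 4.51% of all genes. Those 8 had limma adjusted p-values of 0.00292 to 0.0257, and were not called when the replicate 3 libraries were kept.

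The direction was more uniform than the calls. The fold change was below 0 in 21 of 22 entries, against 52.1% of all genes tested. It was also below 0 in 33 of 35 S phase entries and in 15 of 20 G2 and M phase genes, the lists described below. In 12 of 22 histone entries the value was lower with Blimp-1 in all 3 pairs, against 22.8% of all genes. In 0 of 22 it was higher in all 3, against 22.9%. The 12 were 5 of 8 tested H2A entries, 6 of 9 for H2B, 1 of 2 for H3 and none of the 2 for H1 or the 1 for H4. No entry had vectors that did not overlap, in a set where 2.37% of all genes were lower and 2.34% higher with no overlap. The median log2 fold change was -0.28 over the 22 entries, from -0.71 to 0.01, against -0.01 over all genes tested. By pair the histone medians were -0.45, -0.27 and -0.21. The median moved to -0.53 without empty vector replicate 2, to -0.42 without Blimp-1 replicate 3, to -0.14 without empty vector replicate 3 and to -0.09 without Blimp-1 replicate 2. These entries share reads and cells and are not independent. Counting all 68 transcripts rather than entries, also those below the filter, 34 were lower in all 3 pairs and 0 were higher. No share over all transcripts was taken, so this count cannot be set against the rest of the table.

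**Figure D2:**
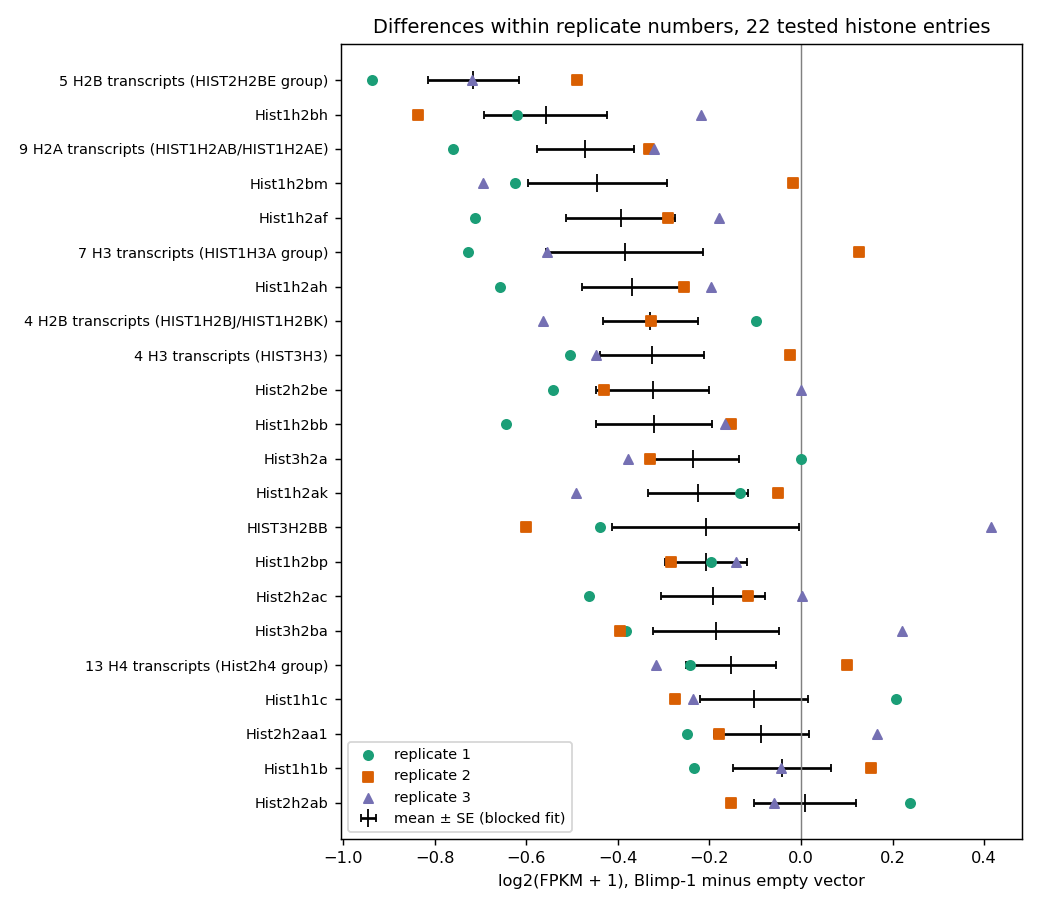
Difference in log2(FPKM + 1), Blimp-1 minus empty vector, within each replicate number (coloured points) for the 22 tested histone entries. Black marks are the mean ± SE of the fit with the replicate block. Most points lie below 0, and 12 entries have all 3 points below 0.

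Among the H2B genes, the entry of 5 genes under HIST2H2BE (Hist1h2bf, Hist1h2bj, Hist1h2bk, Hist1h2bl and Hist1h2bn) had the log2 fold change furthest from 0 of the 22 tested entries on the log2(FPKM + 1) scale with all 6 libraries. With a pseudocount of 0.1 or 0.01 FPKM, Hist1h2bh was further from 0, at -0.86 and -0.92 against -0.78 and -0.79. The entry was at 14.9, 6.71 and 20.9 FPKM in empty vector replicates 1, 2 and 3, and at 7.29, 4.49 and 12.3 with Blimp-1. It was lower in every pair, and the vectors overlapped because both spread widely over replicates. The log2 fold change was -0.71 with an SE of 0.44 (limma adjusted p = 0.998), and with the replicate block the SE was 0.10 (limma adjusted p = 0.163). Within it Hist1h2bj went from 5.02, 2.57 and 9.74 FPKM to 1.73, 1.58 and 4.54, though these rest on about 21 to 47 reads per library.

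Hist1h2bh, another H2B gene of the Hist1 cluster, was at 2.54, 2.12 and 2.84 FPKM in the controls and at 1.31, 0.748 and 2.30 with Blimp-1. It was the 1 entry of the 22 past an unadjusted 0.05, with a log2 fold change of -0.56 and an SE of 0.24 (limma adjusted p = 0.998). The highest Blimp-1 value, in replicate 3, lay between empty vector values. The entry of Hist1h2bc, Hist1h2bg and 2 Hist1h2be transcripts was at 6.04, 4.43 and 7.87 FPKM, and at 5.58, 3.33 and 5.01 with Blimp-1. It too was lower in every pair (log2 fold change -0.33, SE 0.23).

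The H2B genes not named Hist1 were not lower in every pair. Hist3h2ba was the H2B gene with the highest level, at 13.2, 11.3 and 11.1 FPKM in the controls and 9.92, 8.32 and 13.1 with Blimp-1. It was lower in pairs 1 and 2 and higher in pair 3. Hist2h2be was at 3.49, 3.55 and 2.97 FPKM, and at 2.08, 2.38 and 2.97 with Blimp-1, lower in pairs 1 and 2 and level in pair 3. HIST3H2BB was at 4.22, 3.59 and 2.88 FPKM, and at 2.85, 2.03 and 4.18 with Blimp-1, lower in pairs 1 and 2 and higher in pair 3. The log2 fold changes of these 3 were -0.19, -0.32 and -0.21.

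In H2A, the largest entry pooled 9 genes of the Hist1 cluster, among them Hist1h2ag and Hist1h2ai. It was at 34.5, 19.6 and 45.5 FPKM in the controls and at 20.0, 15.4 and 36.2 with Blimp-1, lower in every pair. Within it Hist1h2ag was at 5.02, 2.81 and 7.69 FPKM, and at 2.75, 1.95 and 5.36 with Blimp-1. The log2 fold change was -0.47, with an SE of 0.38 and of 0.11 with the block (limma adjusted p = 0.998 and 0.163). Hist1h2ah, 90.7% of whose 50-base stretches occur in other genes, went from 5.82, 3.23 and 7.29 FPKM to 3.33, 2.55 and 6.24. Hist1h2af went from 5.04, 2.73 and 6.12 FPKM to 2.69, 2.05 and 5.29. Both were lower in all 3 pairs with log2 fold changes of -0.37 and -0.39.

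Fold changes of 2 Hist2 genes of this class were near 0. Hist2h2aa1 was at 3.52, 3.13 and 3.07 FPKM, and at 2.80, 2.65 and 3.57 with Blimp-1 (log2 fold change -0.09, SE 0.14). Hist2h2ab was the only tested entry with a fold change above 0, at 0.847, 0.826 and 1.15 FPKM against 1.18, 0.642 and 1.06 with Blimp-1 (0.01, SE 0.16). It was higher in pair 1 and lower in pairs 2 and 3.

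The tested H3 genes were in a pair of entries. The 7 genes under HIST1H3A, among them Hist1h3b and Hist1h3c, were at 11.03, 4.06 and 17.2 FPKM in the controls and at 6.27, 4.53 and 11.4 with Blimp-1. The 4 genes under HIST3H3 were at 5.66, 2.50 and 10.2 FPKM, and at 3.70, 2.44 and 7.23 with Blimp-1. Both were lower in pairs 1 and 3, and in pair 2 the first was slightly higher and the second nearly level. Within the first, Hist1h3c was at 2.22, 0.948 and 5.20 FPKM, and at 1.65, 0.662 and 2.15 with Blimp-1. The log2 fold changes of the 2 entries, -0.38 and -0.33, were smaller in size than their SEs of 0.49 and 0.47. Without empty vector replicate 3 these became 0.02 and 0.08. Hist2h3c1, all of whose 50-base stretches occur in other genes, stayed between 0.198 and 0.401 FPKM in all 6 libraries.

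The H4 genes, 13 under a single symbol, had the highest summed level of any entry. The entry's log2 fold change was -0.15 with an SE of 0.40. It became 0.11 without empty vector replicate 1, 0.01 without empty vector replicate 3 and 0.14 without Blimp-1 replicate 2. Its most abundant gene, Hist1h4i, was at 15.3, 6.31 and 14.3 FPKM in the controls and at 14.6, 7.57 and 10.7 with Blimp-1, with no common direction. Hist1h4d was at 9.60, 2.84 and 10.4 FPKM, and at 6.97, 2.31 and 4.99 with Blimp-1, lower in every pair.

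Linker histones had low levels in all libraries. Hist1h1c was at 2.38, 2.89 and 3.00 FPKM in the controls and at 2.90, 2.21 and 2.40 with Blimp-1 (log2 fold change -0.10, SE 0.14). In the controls it was not lowest in replicate 2, as most Hist1 entries were. Hist1h1b was lowest in replicate 2 with both vectors, at 1.31, 0.205 and 1.95 FPKM, and at 0.967, 0.341 and 1.86 with Blimp-1 (-0.04, SE 0.39). Hist1h1e, below the filter, ranged from 0.256 to 1.12 FPKM.

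The 10 entries below the filter included the testis variants. Hist1h1t, a linker histone of male germ cells, was above 0 in 1 library only, at 0.0679 FPKM. Hist1h2aa was at most 0.116 FPKM. Hist1h2ba, the testis H2B, was at 1.15, 0.737 and 1.47 FPKM in the controls and at 0.532, 0.341 and 0.866 with Blimp-1, with 38.2% of its 50-base stretches found in other genes. Hist1h1a, Hist1h1d, Hist1h2bq, Hist2h2aa2 and Hist2h2bb were at most 1.38 FPKM in any library. No member was listed at 0 in every library. The 6 tested entries not described singly, Hist1h2ak, Hist1h2bb, Hist1h2bm, Hist1h2bp, Hist2h2ac and Hist3h2a, had log2 fold changes of -0.45 to -0.19.

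**Figure D3:**
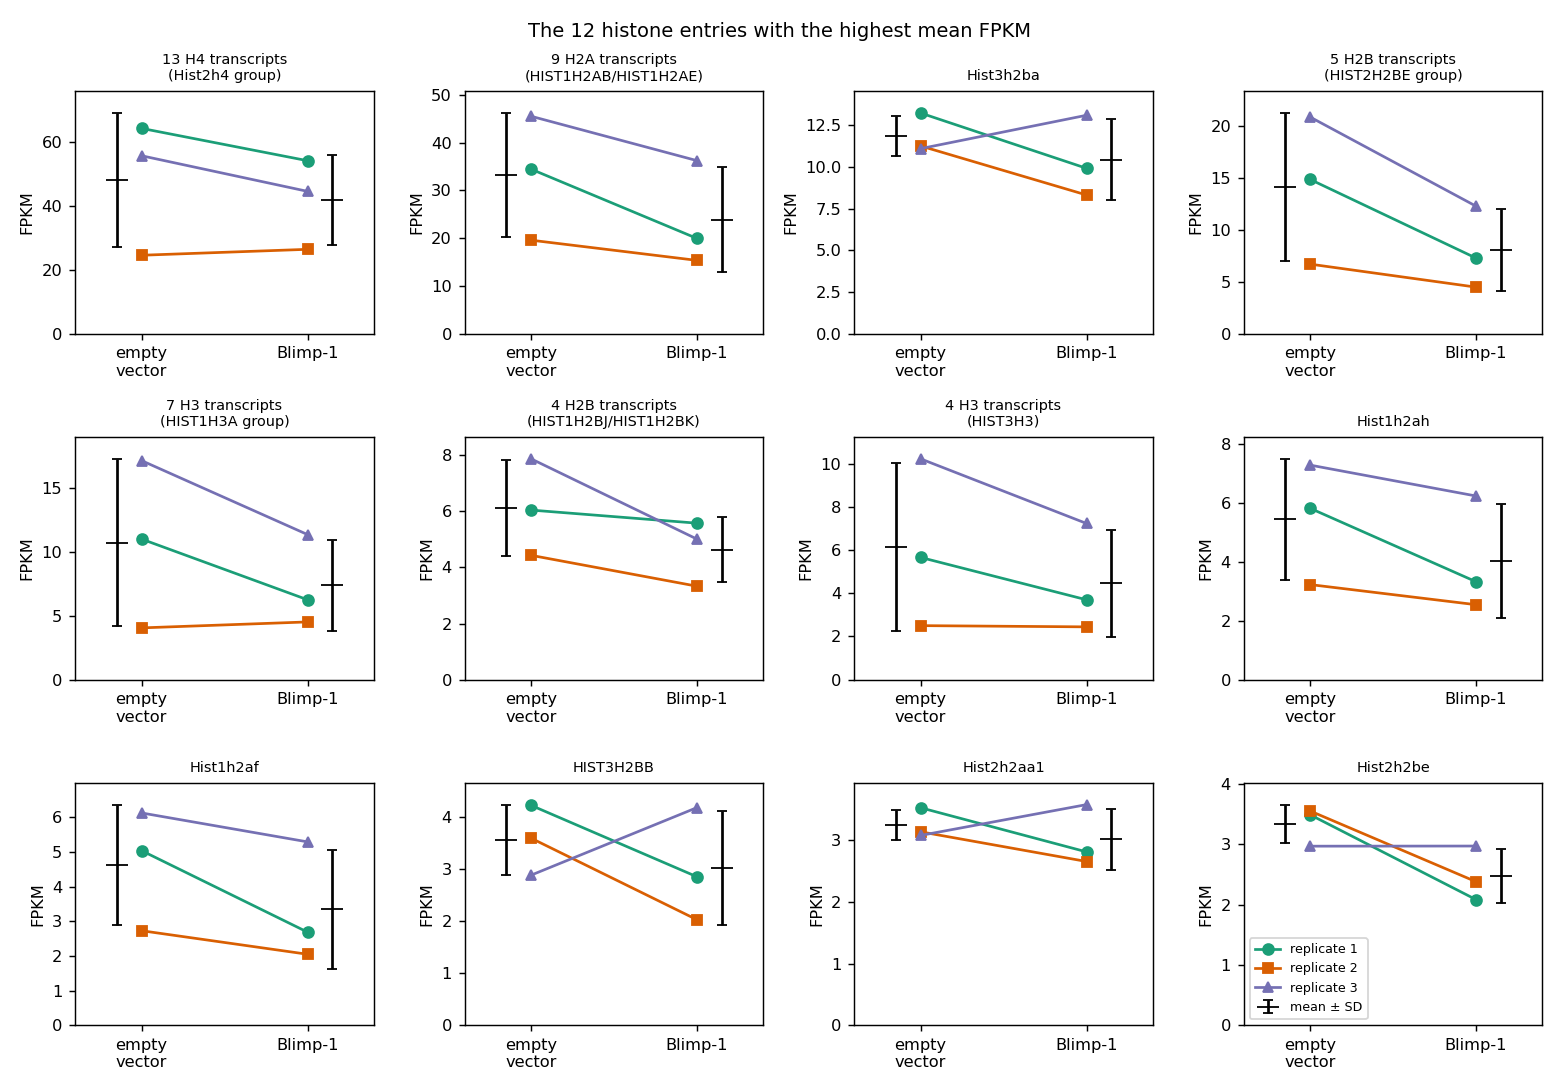
FPKM in each library for the 12 histone entries with the highest mean level (vertical axes in FPKM, each starting at 0). Lines join libraries of the same replicate number, and black bars are the mean ± SD of 3 libraries. Replicate 2 is the lowest of each vector in the entries made up of Hist1 genes, and not in Hist2h2be with either vector. In Hist3h2ba, HIST3H2BB and Hist2h2aa1 it is the lowest with Blimp-1 and not in the controls.

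The spread of the summed level between replicates was larger than the difference between vectors, and its range was wider for Hist1 than for Hist2 and Hist3. The 54 Hist1 transcripts summed to 161, 76.1 and 194 FPKM in the controls and to 114, 66.0 and 143 with Blimp-1, a 2.93-fold range over the 6 libraries. The 10 Hist2 transcripts summed to 14.1, 11.2 and 13.3 FPKM, and to 9.21, 9.09 and 14.1 with Blimp-1, a 1.56-fold range. The Hist3 pair, Hist3h2a and Hist3h2ba, summed to 15.2, 15.3 and 13.8 FPKM, and to 11.9, 11.3 and 14.9 with Blimp-1, a 1.35-fold range. Most of that sum was Hist3h2ba. Hist3h2a alone was at 1.95, 3.995 and 2.65 FPKM, and at 1.95, 2.97 and 1.81 with Blimp-1, highest in replicate 2 with both vectors. Hist1 and Hist2 were lowest in replicate 2 with both vectors, and Hist3 with Blimp-1 only. The Hist3 sums of replicates 1 and 2 were close to each other with each vector. The difference between clusters was not tested.

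The position of the stem-loop was compared with the same replicate pattern. Replicate 2 was chosen for this after its values were seen. Members at 1 FPKM or more on average were set, in replicate 2, against the mean of replicates 1 and 3 on the log2(FPKM + 1) scale. All 21 transcripts whose GENCODE model ends within 100 bases of the stem-loop were lower in replicate 2, with both vectors. Their median log2 difference was -0.82 in the controls and -0.62 with Blimp-1. Of the 14 whose model runs on further, 12 were lower in the controls and 11 with Blimp-1, at medians of -0.66 and -0.57. Of 14 with no stem-loop in the model, 13 were lower in the controls and 14 with Blimp-1, at medians of -0.84 and -0.63. Replicate 2 was thus low in all 3 sets, and differences between them were not tested. The sets rest on GENCODE models, some longer than the RefSeq genes, so they need not describe the RNAs measured.

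Genes of S phase had a similar order of libraries. The list holds 35 entries for DNA replication, and was chosen like all lists here with earlier results of these data known. It summed to 930, 640 and 1388 FPKM in the controls and to 737, 631 and 1168 with Blimp-1. For the S phase list as for the histones, empty vector replicate 3 was highest, Blimp-1 replicate 1 was the fourth, empty vector replicate 2 was the fifth and Blimp-1 replicate 2 was lowest. Empty vector replicate 1 ranked above Blimp-1 replicate 3 for the histones and below it for S phase. The S phase order was not particular to that list. A list of 12 long polyadenylated RNAs found in every cell had the same order over a narrower range. It summed to 22032, 20300 and 24508 FPKM in the controls and to 21991, 19931 and 23318 with Blimp-1. The FPKM total of each library had that order too. None of the 35 S phase entries was called, 15 were lower and 0 higher in all 3 pairs, and the median log2 fold change was -0.20. The ratios within pairs were 0.792, 0.985 and 0.841, against 0.712, 0.835 and 0.792 for the histones. In pair 2 the S phase sum was thus nearly level and the histone sum lower, though not for H3 and H4, with ratios of 1.06 and 1.08. Whether histones and S phase genes differ there was not tested. Pcna, the sliding clamp of DNA polymerase, was at 142, 106 and 244 FPKM, and at 94.3, 105 and 179 with Blimp-1.

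Genes of G2 and M phase, 20 in number, had a median log2 fold change of -0.05, with 2 lower and 0 higher in all 3 pairs. They summed to 1257, 890 and 1580 FPKM in the controls and to 1145, 715 and 1759 with Blimp-1. The ratios within pairs were 0.911, 0.803 and 1.11, so the sum was lower in pairs 1 and 2 and higher in pair 3.

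**Figure D4:**
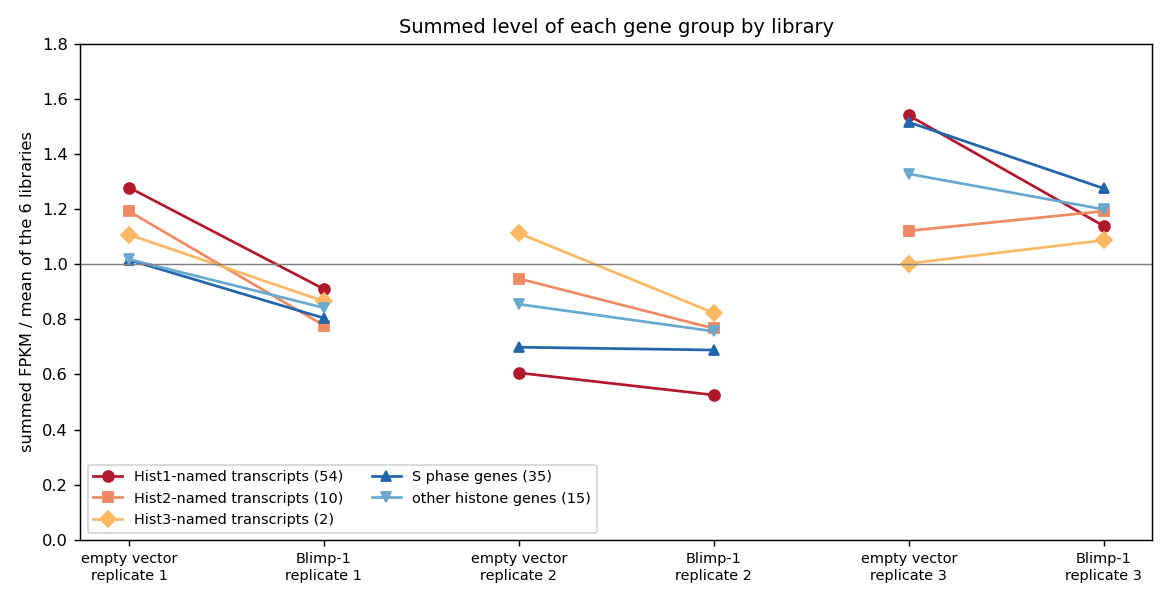
Summed FPKM of each gene group in each library, divided by the group's mean over the 6 libraries (no unit, axis from 0). Points joined by a line share a replicate number. Hist1 and Hist2 transcripts, S phase genes and other histone genes are lowest in replicate 2 with each vector. The Hist3 pair is lowest there with Blimp-1 only, and stays between 0.824 and 1.11.

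Histone genes outside the numbered clusters give mostly polyadenylated mRNA, and 9 of 15 entries were tested. Their median log2 fold change was -0.14, none was called, and 5 were lower and 0 higher in all 3 pairs. The variant H2A.Z gene H2afz was at 369, 259 and 608 FPKM in the controls and at 282, 238 and 479 with Blimp-1. The entry of H3f3a and H3f3b, which encode H3.3, was at 488, 496 and 635 FPKM, and at 415, 443 and 585 with Blimp-1. H2afy, the macroH2A1 gene, was at 346, 281 and 381 FPKM, and at 282, 267 and 313 with Blimp-1. All 3 were lower within each pair, with log2 fold changes of -0.28, -0.17 and -0.22. The 15 entries summed to 1195 to 2097 FPKM, well above the 90.0 to 225 FPKM of the clustered genes in the same libraries.

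The machinery that makes histone mRNA had no common direction. Of 32 genes for histone transcription and 3′ end processing none was called, 10 were lower and 10 higher in all 3 pairs, and the median log2 fold change was -0.07. Slbp was at 42.6, 33.3 and 71.1 FPKM in the controls and at 32.5, 33.0 and 57.7 with Blimp-1. Npat, the coactivator of histone genes, was at 7.04, 6.40 and 4.94 FPKM, and at 7.75, 6.67 and 5.91 with Blimp-1. Casp8ap2, which is needed for histone gene expression, was at 6.70, 6.90 and 6.59 FPKM, and at 7.18, 7.57 and 7.10 with Blimp-1. Slbp was thus lower in each pair, and Npat and Casp8ap2 were higher in each, with log2 fold changes of -0.23, 0.13 and 0.10 that did not pass the test. Of 29 histone chaperones none was called, with 6 lower and 7 higher in all 3 pairs.

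RNAs without a poly(A) tail were looked at because poly(A) selection loses them too. Of 27 listed 14 were in the table and 3 could be tested. Rmrp, named after its values were seen, is the RNA of RNase MRP. It was at 9.16, 1.53 and 1.37 FPKM in the controls and at 0.551, 0 and 0.696 with Blimp-1. It was lower in each pair, and its vectors did not overlap (log2 fold change -1.51, limma adjusted p = 0.998). The 14 summed to 666, 32.5 and 5.39 FPKM, and to 114, 13.9 and 247 with Blimp-1. That order differs from the order of the histone sums. Most of the highest totals came from Scarna17, at 452 FPKM in empty vector replicate 1 and 240 in Blimp-1 replicate 3, which was listed at 0 in the other libraries. How far the share of RNA without a tail differed between libraries was not tested. A list of 12 long polyadenylated RNAs found in every cell had a median log2 fold change of -0.02.

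Promoters were searched for short motifs in the 250 bases before the start, for 61 members and 27025 genes of RefSeq on GRCm38.p6, on both strands. The CCAAT box was in 82.0% of member promoters and 34.5% of all. It was held by all 6 H1, all 18 H2A and all 15 H2B promoters, by 8 of 10 for H3 and by 3 of 12 for H4. The octamer ATTTGCAT, the site of Oct factors, was in 21.3% of members and 1.61% of all, in 7 H2A and 6 H2B promoters and in no other class. TATAAA was in 47.5% and 12.97%. The E2F motif TTTCGCGC was in 11.5% and 0.255%. AGNGAAAG, a core of the Blimp-1 motif, was in 6.56% of members and 7.23% of all promoters. A match says only that these letters are there.

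The promoters of an H2B and an H4 gene, chosen after their values were seen, are printed to show how these windows differ in motifs between classes. Matches to the octamer, the TATA box, the CCAAT box and the E2F motif are in capitals, on either strand. The Hist1h2bj window is chr13:22042948-22043197 on the plus strand and shares 248 bases with that of Hist1h2ag, which is transcribed the other way. The Hist1h4i window is chr13:22041363-22041612 on the minus strand. Both are in build GRCm38.p6:
Hist1h2bj: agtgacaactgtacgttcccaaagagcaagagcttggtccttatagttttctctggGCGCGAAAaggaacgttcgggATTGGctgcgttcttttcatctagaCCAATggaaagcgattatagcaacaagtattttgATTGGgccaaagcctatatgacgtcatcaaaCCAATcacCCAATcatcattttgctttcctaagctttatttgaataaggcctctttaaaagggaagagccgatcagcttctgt
Hist1h4i: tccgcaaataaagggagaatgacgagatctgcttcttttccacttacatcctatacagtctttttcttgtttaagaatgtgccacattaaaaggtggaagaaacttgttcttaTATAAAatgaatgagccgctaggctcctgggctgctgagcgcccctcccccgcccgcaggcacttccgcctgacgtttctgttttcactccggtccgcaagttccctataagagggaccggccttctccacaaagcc

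The Hist1h2bj window holds CCAAT or its complement 5 times and TTTCGCGC once, and the Hist1h4i window holds neither. No AGNGAAAG match was found in either. CCAAT matches were not limited to members lower in every pair: Hist3h2ba and Hist2h2ab, not lower in every pair, hold CCAAT 4 and 3 times, and Hist1h4d, lower in every pair, holds it once.

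The counts behind these values were low. Reads were estimated for the 61 members with a short gene in RefSeq (375 to 911 bases), which was taken as 1 exon. The number per transcript had a median of 13.7, 11.2 and 15.1 in the empty vector libraries. In the Blimp-1 libraries the median was 20.4, 12.04 and 22.1. Between 10 and 29 of the 61 per library had under 10 reads. The part of read number in the lack of calls was not tested.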

How the data were processed

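RNA-seq libraries of 3 empty vector and 3 Blimp-1 samples were used. The deposited values are FPKM per RefSeq transcript, which the authors scaled to transcript length and library size. Tools listed in the submitters' processing notes, without their roles, are Cufflinks 2.2, CASAVA 1.8.2 and Partek 6.6, with build mm9. The sources used here give no aligner, no strand setting and no rule for reads with several matches. Labels give stimulation as 36 hours before transduction and 2 days after, and elsewhere as 3 days.

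FPKM was summed per deposited symbol, and 1138 transcripts without one were kept apart. Fold changes are on the log2(FPKM + 1) scale, which understates those of low genes. Genes that reached 1 FPKM in 3 or more of 6 libraries were tested with limma 3.58.1 (R 4.3.3, mean-variance trend, vector as the only term, adjustment by Benjamini-Hochberg at 0.05). The fit was run on simulated data with independent noise and no effect shared by replicate number. These libraries do have such an effect, so that run says nothing on the lack of calls here. The replicate number was a block in an alternative fit. Same-numbered libraries deviated together from the vector means (correlations of 0.75, 0.79 and 0.66), and this check, not the labels, is where the pairing comes from.

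Depth was estimated from the FPKM value of 1 read in low genes, with 200 bases taken off each length. GENCODE M21 and RefSeq GRCm38.p6 gave names and sequences. That build differs from the table's.

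Members and lists were chosen with earlier results of these data known. Entries named were the 12 with the highest mean, the 3 highest of each class, those called, the 3 largest rises and falls and testis variants, and in other lists the 3 highest, Slbp, Npat and Casp8ap2. Other genes were named after seeing their values. Alternatives were other pseudocounts, filters, scalings and units of summing, and leaving out libraries.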

Additional observations from a re-analysis of the deposited data

How the results depend on the processing

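No histone entry was called under any alternative with all 6 libraries or without 1 library. With the replicate block and both libraries of 1 number left out, 0 to 8 of 22 were called, the 8 without replicate 3. All calls over the table numbered 0 in the fit without the block, 2 with the replicate block, 1 with median ratio scaling, 0 to 1 without 1 library, 2 with the replicate block summed per mouse gene (an alternative added after seeing the data), and 2, 4 and 853 with the block and without replicates 1, 2 and 3. The histone median of -0.28 ranged from -0.39 to -0.20 under other settings and from -0.53 to -0.087 without 1 library. The mean log2 ratio of the histone sums was -0.36, and -0.23 as the median of log2 values. Each transcript on its own gave 0 calls. The replicate block changed no call of a histone entry.

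Of 265 values for 16 named entries under 17 settings, 239 kept their direction and their side of the threshold, and 11 entries were below 0 in every setting. Hist1h1b turned to 0.021 and 0.067 with pseudocounts of 0.1 and 0.01, and to 0.0018 with quantile normalization, which took Hist2h2ab to -0.014. Without 1 library the log2 fold change ranged from -0.57 to 0.14 for the H4 entry, from -0.90 to 0.022 for HIST1H3A, from -0.76 to 0.081 for HIST3H3, from -0.41 to 0.23 for Hist1h1b and from -0.072 to 0.13 for Hist2h2ab. With the replicate block and without replicate 1, Hist1h1b was at 0.055 and Hist2h2ab at -0.11. The cause was not tested. Shared sequence and poly(A) selection limit what these libraries show of single histone genes.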
